A study of Fukomys damarensis and Heterocephalus glaber and Mus musculus with 160 samples.

Results

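Nppa and Nppb are the 2 neighbouring mouse genes of the cardiac natriuretic peptides, and the histone marks around them were followed in heart and liver. The members were set by position: every peak overlapping an 80 kb window on mouse chromosome 4, chr4:147950001-148030000 in build GRCm38, with Nppb placed at 147.986 Mb and Nppa at 148.001 Mb. In this window 76 peaks lay, of 1711588 peaks in the 29 mouse histone lists and 8953087 peaks in the 116 lists of the series. Of the 76 peaks, 45 were H3K27ac, 20 were H3K4me1 and 11 were H3K4me3, and every one of them came from heart. The symbols belong to the identifiers ENSMUSG00000041616 (Nppa) and ENSMUSG00000029019 (Nppb); the exons, introns and UTRs of both genes were not used here, so places are given as distances from the 2 positions above.

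The series profiled histone marks by chromatin immunoprecipitation and sequencing in liver and heart of mole-rats, guinea pig and mouse; peaks are stretches with more reads than in an input library made without antibody. All mice were wild-type C57BL/6J adult males of 2 months by their labels, and no treatment was named for either tissue. Livers were flushed with buffer, whole hearts were cut up after clots had been taken out of the ventricles, and so each library is a mixture of all cell types and chambers of the organ. Heart had 6 libraries of H3K4me3, 6 of H3K27ac and 5 of H3K4me1 from 12 named samples, 1 of them labelled with the numbers of 3 animals and called the pool here; liver had 4 libraries of each mark, all from the same 4 mice. In such bulk tissue, fewer cells carrying a mark and less of the mark per cell cannot be told apart.

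Nppa encodes atrial natriuretic peptide (ANP) and Nppb encodes brain natriuretic peptide (BNP). Heart muscle cells release both hormones when stretched; they act through the guanylyl cyclase receptor NPR-A on kidney and vessels to promote salt and water loss and to lower blood pressure. In the adult, ANP is made mostly in the atria, and both genes are switched on again in the stressed ventricle. The genes lie side by side and are read in the same direction, toward higher coordinates in the mouse, with Nppb first, so lower coordinates are upstream of Nppb. Enhancers upstream of Nppb are known to act on both genes in the heart. H3K4me3 is typical of active promoters, H3K27ac of active promoters and enhancers, and H3K4me1 of enhancers.

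Some libraries have to be named before the results. A peak list carries no read numbers, so the read depth is unknown; the H3K27ac lists held 57663 to 109724 peaks in heart and 56871 to 63479 in liver, the H3K4me3 lists 18135 to 32785 and 17431 to 19301, and the H3K4me1 lists 20521 to 129914 and 86486 to 113889. The shortest H3K4me1 list was that of the heart pool, which held a peak in 28.4% of the 60530 bins of 1 kb with one in all 4 other heart libraries of that mark. For those 4 the share was 87.8% to 99.8%, but of 17198 to 19560 bins, because their bins must also be in the pool's short list. The shares are therefore not on like terms. The longest H3K4me1 list, from mouse 33017, carries a tag in its file that the labels do not explain. The H3K4me3 heart list of mouse 6837 overlapped the liver lists (mean Jaccard index, the shared bases over all bases covered, 0.550) more than it overlapped the other heart lists (0.489). Its index with liver was not the highest: that of mouse 17_36584 was 0.618 and that of 33016 was 0.607. Heart and liver libraries came from different mice and were called against inputs of different origin: all 12 liver lists used the input of the same mouse, 4 of 17 heart lists did. Tissue cannot be told apart from these differences, and whether they bear on the cluster was not tested. The spread given below is between libraries of different animals.

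No liver library had a peak of any mark in the 80 kb window, and 15 of 17 heart libraries had at least 1. Liver was not blank next to the window: in the 80 kb before it, each liver library had 3 H3K4me3 peaks, 6 to 8 H3K27ac peaks and 13 to 28 H3K4me1 peaks, and in the 80 kb after it 3 to 6, 10 to 11 and 7 to 26. The map of all peaks shows that the heart peaks sat in few places: a block upstream of Nppb, the Nppb start, the Nppa start, and a few singles.

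**Figure D1:**
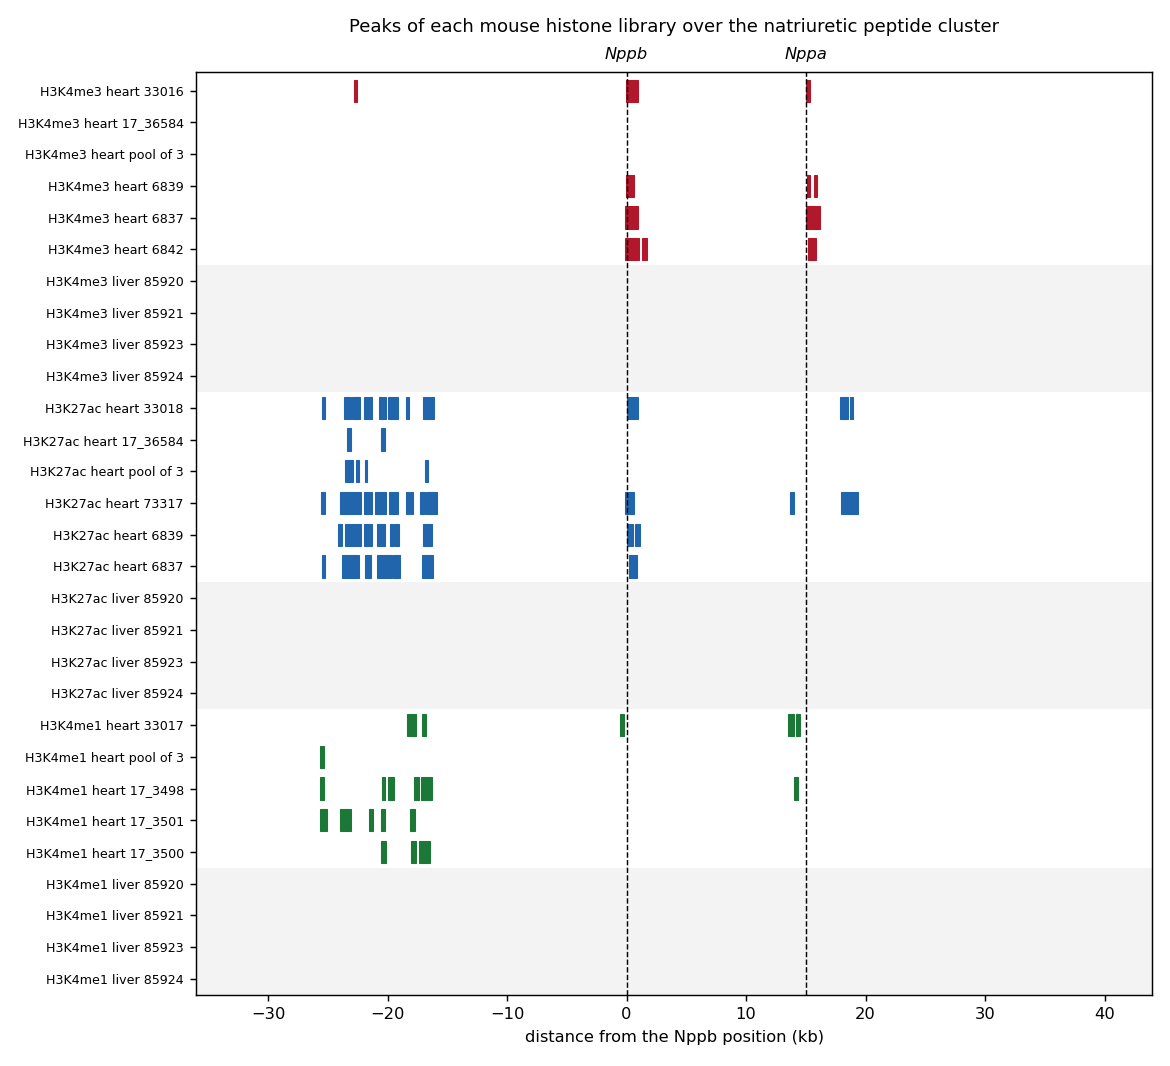
Each row is 1 library and each coloured bar 1 peak, drawn to scale against the distance from the Nppb position in kb (red H3K4me3, blue H3K27ac, green H3K4me1; shaded rows are liver). The 12 liver rows are empty, the heart H3K27ac rows are densest 15.8 to 25.6 kb before Nppb, and the H3K4me3 rows of mouse 17_36584 and of the pool are empty.

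H3K27ac was the mark with the widest cover in heart. Its peaks covered 6681 bases of the window in mouse 33018 (11 peaks), 8999 in 73317 (12 peaks), 5467 in 6839 (9 peaks), 5790 in 6837 (7 peaks), 1375 in the pool (4 peaks) and 570 in 17_36584 (2 peaks). All 6 heart libraries lay above the 4 liver libraries at 0, but 17_36584 and the pool lay far below the other 4. The mean was 4814 ± 3232 bases (SD, n = 6) in heart and 0 in each of 4 liver libraries. A two-sided exact permutation test over libraries gave p = 0.00952, the smallest that 6 against 4 allows, and an adjusted p of 0.0225 (Benjamini-Hochberg over the 17888 windows of this length tested). Such a difference was common: every heart library lay above every liver library in 21.6% of the windows tested, and 23.7% were called higher in heart at an adjusted p under 0.05, with 4247 called higher in heart and 4027 higher in liver. The call was lost without any 1 of the liver libraries 85920, 85921, 85923 or 85924 (adjusted p = 0.0531 to 0.0541, exact permutation test), where the smallest possible p rises to 0.0238 and the difference itself stays 4814.

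H3K4me3 covered 2323 bases in mouse 6837, 2296 in 6842, 1469 in 33016, 1143 in 6839 and 0 in both 17_36584 and the pool. The heart and liver ranges thus met at 0. The heart mean was 1205 ± 1041 bases (SD, n = 6) against 0 in the 4 liver libraries, with an exact permutation p of 0.143 and an adjusted p of 0.760. No window of the 19502 tested for this mark was called higher in heart (0%) or in liver at an adjusted p under 0.05, although 2410 had an unadjusted p under 0.05, and every heart library lay above every liver library in 5.17% of them. Without the library of mouse 6837, named above for its overlap with the liver lists, the mean was 982 (adjusted p = 0.836, exact permutation test).

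H3K4me1 covered 2805 bases in mouse 17_3498, 2444 in 17_3501, 2262 in 33017, 1834 in 17_3500 and 318 in the pool. Here the 5 heart libraries all lay above the liver libraries, with the pool lowest. The mean was 1933 ± 968 bases (SD, n = 5) against 0 in 4 liver libraries, and the exact permutation test gave p = 0.0159 (5 against 4 libraries cannot go lower) and an adjusted p of 0.110. The adjusted test called none of the 21438 windows in either direction (0% higher in heart), 4486 had an unadjusted p under 0.05, and the groups were fully apart with heart higher in 0.872%. With equal numbers of peaks per list the difference fell to 779 bases (exact permutation p = 0.0794, adjusted p = 0.277), since every list is then shortened to the 20521 peaks of the pool; without the pool it was 2336 (adjusted p = 0.108, exact permutation test).

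**Figure D2:**
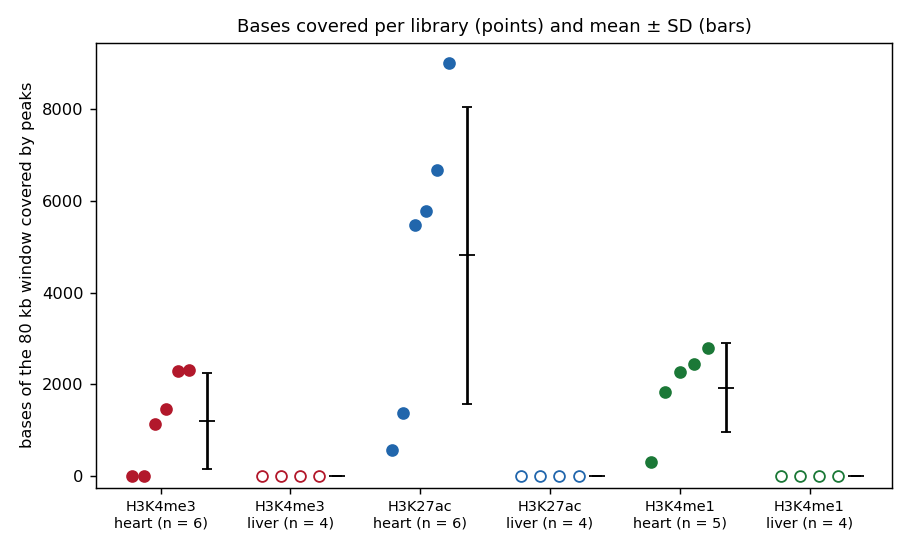
Bases of the 80 kb window covered by peaks (vertical axis) in each library (points, filled for heart and open for liver), with the mean ± SD of each group as a bar beside them. All liver points are at 0; in heart, H3K27ac ranges from 570 to 8999, H3K4me3 from 0 to 2323 and H3K4me1 from 318 to 2805.

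At the Nppb start, taken as 1 kb to each side of its position (chr4:147985001-147987000), H3K4me3 and H3K27ac were both found in heart. H3K4me3 covered 960 bases there in mouse 33016, 631 in 6839, 1090 in 6837 and 1097 in 6842, and 0 in 17_36584 and the pool. The 4 peaks ran within chr4:147985877-147987038, from 0.123 kb before the position to 1.04 kb after it, and shared the 602 bases chr4:147985995-147986596. Their fold enrichment over background, which is the authors' own value for each peak and is used here only to describe peaks within a list, was 11.99 in 33016, 9.51 in 6839, 11.99 in 6837 and 9.44 in 6842. Within their own lists these folds stood at the 31.3rd, 29.4th, 58.9th and 54.9th percentile, so the Nppb peak was never among the strongest H3K4me3 peaks of its library. Their ranks were 13698 of 19954 peaks, 12785 of 18135, 11996 of 29226 and 14753 of 32785. A percentile thus also depends on the length of the list and is no comparison between libraries. The heart mean was 629.7 ± 516 bases (SD, n = 6) against 0 in 4 liver libraries, with an exact permutation p of 0.143 and an adjusted p of 0.761.

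H3K27ac at the Nppb start covered 924 bases in mouse 33018, 739 in 73317, 864 in 6839 (2 peaks), 696 in 6837, and 0 in 17_36584 and the pool. The 4 libraries with peaks were close to each other, and the pair without any was the same as for H3K4me3. The peaks shared the 395 bases chr4:147986181-147986575, inside the H3K4me3 core named above. The highest fold there was 8.65 in 33018 (65.2nd percentile of its list), 9.10 in 73317 (80.9th), 8.31 in 6839 (68.5th) and 4.98 in 6837 (37.8th). The mean was 537 ± 424 bases (SD, n = 6) against 0 in liver, with an exact permutation p of 0.143 and an adjusted p of 0.297. H3K4me1 was found at the Nppb start in 1 of 5 heart libraries, a peak of 290 bases in mouse 33017 that ended 0.225 kb before the Nppb position (mean 58.0 ± 129.7, exact permutation p = 1).

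At the Nppa start, chr4:148000001-148002000, H3K4me3 was again found in the same 4 heart libraries. It covered 306 bases in mouse 33016, 512 in 6839 as 2 peaks, 1027 in 6837 and 702 in 6842, and 0 in 17_36584 and the pool. The covered stretch began at -0.026 kb from the Nppa position (minus sign, toward Nppb), and the 4 libraries shared 161 bases, chr4:148001165-148001325. The highest fold was 8.21 in 33016 (22.5th percentile of its list), 5.71 in 6839 (11.1th), 7.74 in 6837 (45.5th) and 11.8 in 6842 (58.6th). The heart mean was 424.5 ± 405 bases (SD, n = 6) against 0 in liver, with an exact permutation p of 0.143 and an adjusted p of 0.761; without mouse 6837 it was 304 (adjusted p = 0.817, exact permutation test), while at Nppb it was 538.

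H3K27ac was nearly absent from the Nppa start. It covered 28 bases in mouse 73317 and 0 in the other 5 heart libraries, and no H3K27ac peak had its summit within 1 kb of the Nppa position. The 28 bases were the edge of a peak at chr4:147999693-148000028 with a fold of 3.50 (8.12th percentile of its list), whose summit lay at -1.14 kb from the Nppa position. The mean was 4.67 ± 11.4 bases (SD, n = 6) against 0 in liver (exact permutation p = 1). H3K4me1 covered 318 bases in mouse 33017, 320 in 17_3498 and 0 in the other 3 heart libraries (mean 127.6 ± 175, exact permutation p = 0.556, adjusted p = 0.885); the mean was 80 without 33017 and 79.5 without 17_3498. These H3K4me1 peaks lay on the Nppb side of the position, at -1.52 to -0.499 kb from it, where mouse 33017 had 2 peaks.

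The 2 kb windows of the whole genome were tested in the same way, stepped by 1 kb. For H3K4me3, 0% of 140321 windows were called higher in heart at an adjusted p under 0.05 (17099 windows had an unadjusted p under 0.05), and every heart library lay above every liver library in 3.28%. For H3K27ac, both rules called 10.6% of 326016 windows (117370 windows had an unadjusted p under 0.05). For H3K4me1, the adjusted test called 0% of 445651 windows (67873 with an unadjusted p under 0.05), and the groups were fully apart in 1.18%. Neither gene start was among the windows called, in any mark. Without 17_36584 and the pool, a choice made after their values were seen, the heart means rose to 944.5 bases of H3K4me3 at Nppb, 636.75 of H3K4me3 at Nppa and 806 of H3K27ac at Nppb. The exact permutation p was then 0.0286, the smallest that 4 against 4 allows, and the adjusted p was 0.257, 0.257 and 0.0799. The libraries left out were those at 0 in these windows, and liver was at 0 too. The full separation therefore followed from the choice, and no conclusion is drawn from these p-values.

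The 2 genes were then compared within each heart library. Within 1 kb of the positions, bases of H3K4me3 were higher at Nppb than at Nppa in 4 libraries and equal at 0 in the other two, with a mean difference (Nppa minus Nppb) of -205 ± 264 bases (SD, n = 6) and an exact two-sided sign-flip permutation p of 0.125; without mouse 33016 the difference was -115. This order depended on the width taken: within 2 kb, which holds the whole peaks, Nppb was higher in 3 libraries and Nppa in mouse 6837, whose Nppa peak is 1233 bases wide and whose Nppb peak is 1090 (mean -254 ± 418 bases, n = 6, exact sign-flip permutation p = 0.375). The fold of the H3K4me3 peak was higher at Nppb in 3 of the 4 libraries with both peaks and higher at Nppa in mouse 6842 (exact sign-flip permutation p = 0.25, smallest possible 0.125). For H3K27ac, Nppb was higher in 4 libraries and equal in the other two, by -532.5 ± 422 bases (Nppa minus Nppb, SD, n = 6, exact sign-flip permutation p = 0.125). For H3K4me1, Nppa was higher in 2 libraries and equal in 3, by 69.6 ± 141 bases (n = 5, exact sign-flip permutation p = 0.5). That difference rested on mouse 17_3498, without which it was 7 bases, and it was 179 within 2 kb. With only 4 libraries that differ within 1 kb, the H3K4me3 and H3K27ac comparisons cannot give a p below 0.125.

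**Figure D3:**
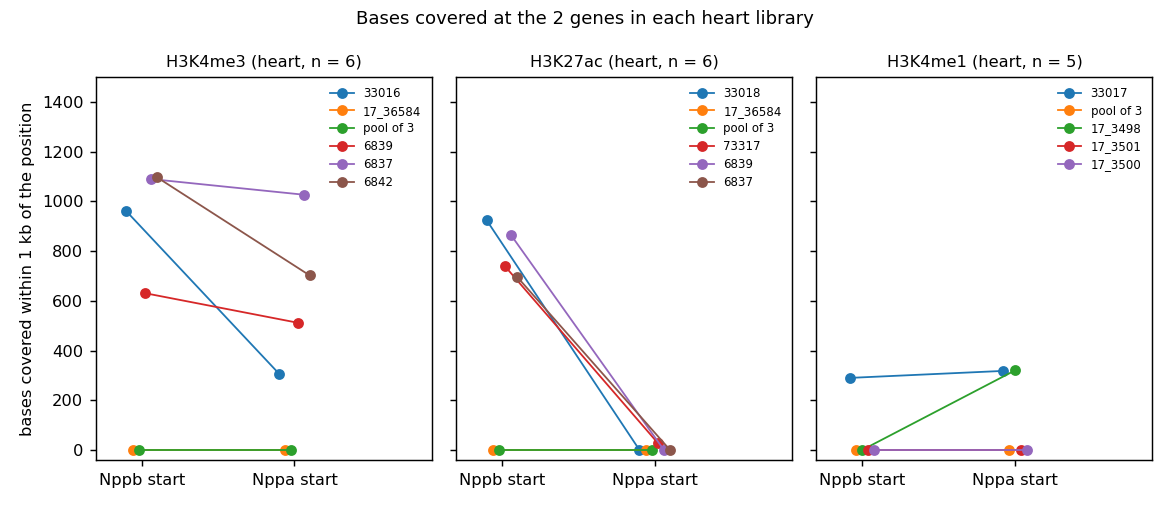
Bases covered within 1 kb of the Nppb and Nppa positions (vertical axis) in each heart library, 1 line per library and 1 panel per mark, with lines shifted slightly sideways to separate them. H3K4me3 slopes down from Nppb to Nppa in 4 of 6 libraries, H3K27ac falls from 696 to 924 bases at Nppb to at most 28 at Nppa, and 2 H3K4me1 libraries are above 0 at Nppa.

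The largest share of the H3K27ac lay upstream of both genes. Of the 45 H3K27ac peaks, 36 had their summit in the first 35 kb of the window, which end 1 kb before the Nppb position. These 36 spanned 9.77 kb, chr4:147960395-147970163, from 25.6 kb to 15.8 kb before the Nppb position. This span, drawn from the peaks themselves, is called the block here, and all 6 heart libraries had peaks in it. Its peaks covered 4880 bases in mouse 33018, 6508 in 73317, 4449 in 6839, 5094 in 6837, 1375 in the pool and 570 in 17_36584. In the last pair they were all the H3K27ac of the window. The peaks were 193 to 1740 bases wide (median 598.5) with folds of 3.15 to 18.9. In each heart library the highest H3K27ac fold of the window fell in this block and not at a gene: 10.99 in 33018, 18.9 in 73317, 11.4 in 6839, 9.13 in 6837, 6.31 in the pool and 4.65 in 17_36584. Within their lists these stood at the 74.4th, 95.4th, 81.4th, 81.6th, 61.5th and 42.9th percentile. List length enters here too: the pool's peak ranked 40280 of 104892 and that of 17_36584 ranked 36562 of 66161.

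The block was made of 7 separate stretches of H3K27ac. The stretch chr4:147961824-147963771 was found in 6 of 6 heart libraries, with 275 bases common to all of them, chr4:147962644-147962918, and it held the highest peaks of 73317, 6837 and the pool. Next to it, chr4:147964017-147964730 was found in 5 libraries and held the highest peaks of 33018 and 6839. The stretches chr4:147964958-147967066 and chr4:147968700-147970163 were also found in 5 libraries each. The stretch at the far end, chr4:147960395-147960806, was found in 3, and the 2 narrow stretches between 147967506 and 147968129 in 2 libraries and 1 library. The library missing from the 5 was the pool for chr4:147964958-147967066 and 17_36584 for the 2 others.

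Tested by 1 kb bin, 19 of the 80 bins had H3K27ac in at least 1 heart library and 0 had it in liver. In 1 bin, chr4:147962001-147963000, all 6 heart libraries lay above liver, with a mean of 671 bases, an exact permutation p of 0.00952 and an adjusted p of 0.0390; over all 259177 bins tested, both this rule and the adjusted threshold gave 8.64%. In 4 more bins of the block 5 of 6 heart libraries had H3K27ac (exact permutation p = 0.0476, adjusted p = 0.146). An unadjusted p under 0.05 was common for this mark: 117370 of 326016 windows of 2 kb and 9709 of 17888 windows of 80 kb had one. The share over all 1 kb bins is not given, so these 4 bins are only described. The count of bins with all heart libraries above liver was 4 without 17_36584, 2 without the pool and 7 without both. It fell to 0 when peaks needed a −log10 q of 4 or more, or with equal numbers of peaks per list. Leaving out libraries can never lower such a count, and this pair was chosen after its values were seen. The share of all bins is not given for the stricter q, for equal numbers of peaks or with libraries left out. These counts are therefore not read as a result about the cluster. For H3K4me3, 7 bins had a heart peak and in none did the groups separate (2.99% of the 99307 bins tested did, 0% were called higher in heart at an adjusted p under 0.05, and 0 of the 80 bins had an unadjusted p under 0.05); 3 bins separated without 17_36584 and the pool. For H3K4me1, 11 bins had a heart peak and again none separated (0.963% of 348031 bins, 0% called with the adjusted threshold, and 0 of the 80 with an unadjusted p under 0.05); 1 did without the pool.

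**Figure D4:**
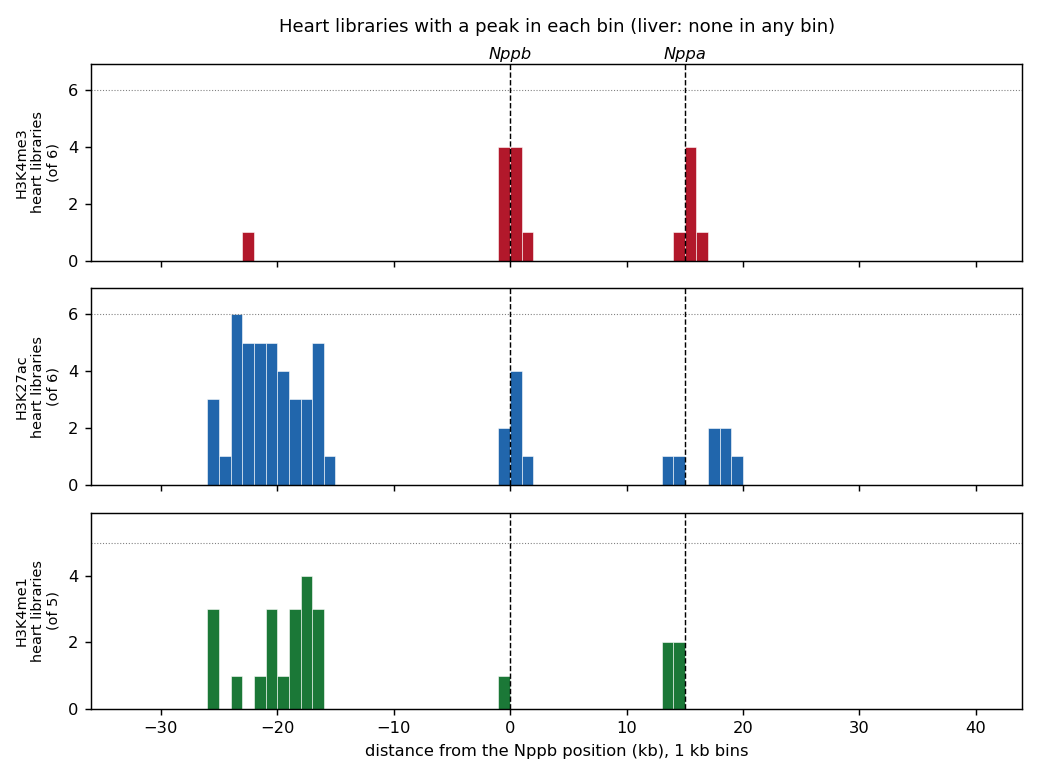
Number of heart libraries (vertical axis) with a peak in each 1 kb bin, against the distance from the Nppb position in kb, for H3K4me3, H3K27ac and H3K4me1 from top to bottom; dotted lines mark the number of libraries made. H3K27ac reaches 6 of 6 in 1 bin of the upstream block, H3K4me3 reaches 4 of 6 at both genes, and H3K4me1 reaches 4 of 5 in 1 upstream bin.

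H3K4me1 lay in the same upstream stretch. Of its 20 peaks, 16 were between chr4:147960339 and 147969751, in all 5 heart libraries, with folds of 3.62 to 8.80. They covered 2457 bases upstream of Nppb in mouse 17_3498, 2444 in 17_3501, 1834 in 17_3500, 1135 in 33017 and 318 in the pool. The place found most often was chr4:147967631-147968601, in 4 of 5 libraries with the pool missing, where H3K27ac was found in 2 libraries at most. Other places recurred in 3 libraries: chr4:147960339-147960933, chr4:147965489-147965891 and chr4:147968620-147969751. The highest H3K4me1 fold of the window was in this stretch in 4 of the 5 libraries, at the 89.6th percentile of the list in 17_3498 and the 90.9th in 17_3500, and near Nppa in mouse 33017 (5.40, 67.1st percentile).

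**Figure D5:**
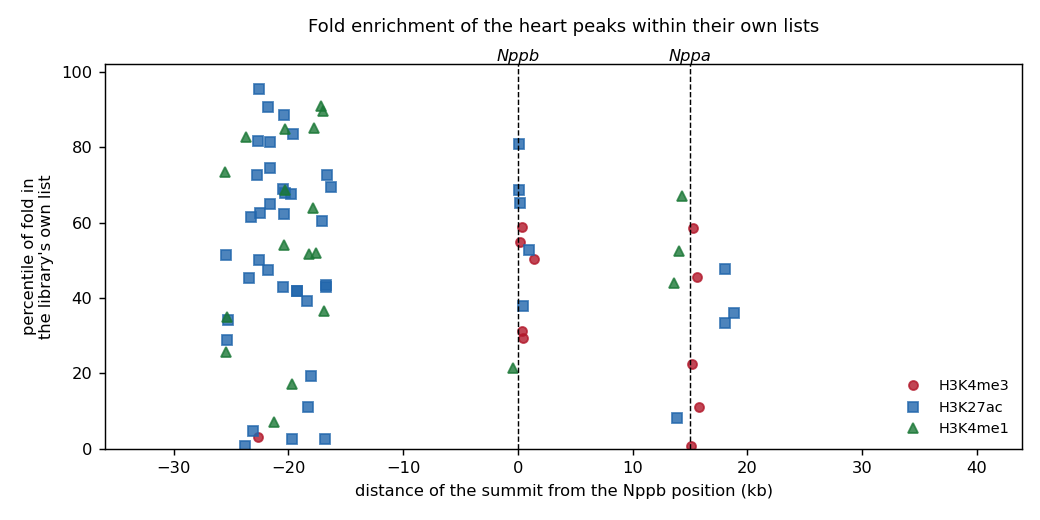
Each point is 1 heart peak, placed by the distance of its summit from the Nppb position (kb) and by the percentile of its fold among all peaks of its own list (circles H3K4me3, squares H3K27ac, triangles H3K4me1). The upstream block spans the 0.764th to the 95.4th percentile for H3K27ac, while the H3K4me3 peaks at both genes stay at or below the 58.9th.

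The marks shared the cluster unevenly. Counting every base with a peak in at least 1 heart library, H3K27ac covered 10257 bases of the window, H3K4me1 6013 and H3K4me3 3057. H3K27ac and H3K4me1 shared 4205 bases, 41.0% of the H3K27ac and 69.9% of the H3K4me1. H3K27ac and H3K4me3 shared 1352 bases, 13.2% of the H3K27ac and 44.2% of the H3K4me3. The overlap was smaller for bases found in more libraries of each mark. H3K27ac and H3K4me1 shared 1266 bases at 2 or more libraries (16.9% and 58.7%) and 659 at 3 or more (12.2% and 47.2%). For H3K27ac and H3K4me3 these were 939 bases (12.5% and 46.6%) and 778 bases (14.4% and 55.8%). H3K4me1 and H3K4me3 shared 0 bases, and the H3K4me1 peaks near the genes ended before the H3K4me3 peaks began. Since the H3K4me1 libraries came from other mice than most of the H3K27ac and H3K4me3 libraries, the overlap is between sets of libraries and not within animals.

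Both H3K4me3 and H3K27ac were available from the same sample for 6839, 6837, 17_36584 and the pool. In 6839 and 6837 the 2 marks lay together at the Nppb start (631 and 864 bases in 6839, 1090 and 696 in 6837, H3K4me3 first), and at the Nppa start both had H3K4me3 (512 and 1027 bases) without any H3K27ac. In 17_36584 and the pool neither mark was found at either gene, and H3K27ac was present in the upstream block alone. Of the 1 kb bins that had a peak in the 5 other heart libraries of the mark and in no liver library, 17_36584 had a peak in 95.2% for H3K4me3 and 81.4% for H3K27ac, and the pool in 98.7% and 90.0%. The other heart libraries ranged from 72.2% to 98.1% for H3K4me3 and from 81.2% to 99.7% for H3K27ac. Bins at the gene starts could not enter this count, because both samples lacked peaks there. The mean Jaccard index with the other heart lists was 0.468 in 17_36584 and 0.469 in the pool for H3K27ac (the others 0.473 to 0.528). For H3K4me3 it was 0.659 and 0.538 (the others 0.489 to 0.660). The input library that served both lists of 17_36584 also served the H3K27ac list of 73317, the highest at the cluster, and the H3K4me3 list of 6839. The labels give all heart samples the same strain, sex and age, and what sets these samples apart at the cluster was not tested.

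A few peaks lay outside these places. H3K27ac was found 2.88 to 4.33 kb after the Nppa position in mouse 33018 (877 bases in 2 peaks) and 73317 (1416 bases in 1 peak), with folds of 4.50 to 6.52, and in none of the other 4 heart libraries. H3K4me3 had 1 peak of 459 bases just after the Nppb peak in 6842 and 1 of 203 bases in the upstream block in 33016, with a fold of 4.55 (3.14th percentile of its list). No peak of any mark lay more than 4.33 kb after Nppa within the window, or before the start of the upstream H3K4me1 at chr4:147960339.

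Windows of the same length on either side gave a measure of how far heart and liver differ in this neighbourhood. In the 80 kb before the cluster, H3K27ac covered 19036 ± 5989 bases in heart (13252 to 29766, n = 6) and 8938 ± 158 in liver (n = 4), with every heart library above every liver library (exact permutation p = 0.00952, adjusted p = 0.0225). In the 80 kb after it, heart had 14488 ± 4256 bases and liver 8762 ± 1198, and the ranges overlapped slightly (exact permutation p = 0.0190, adjusted p = 0.0412). A higher H3K27ac cover in heart was therefore measured in both neighbouring windows too, where liver was well above 0. H3K4me3 did not pass the test in either window (heart 5742 ± 1982 and liver 5220 ± 314 before, adjusted p = 1, exact permutation test), and neither did H3K4me1 (adjusted p = 0.777 in both, exact permutation test). No 80 kb window of the genome passed for either mark (smallest adjusted p 0.146 for H3K4me3 and 0.110 for H3K4me1, exact permutation test). Their not passing is therefore no contrast to the H3K27ac calls. 17_36584 and the pool covered 13252 and 14261 bases of H3K27ac before the cluster, the lowest of the 6 heart libraries (the others 16679 to 29766). After the cluster they covered 14370 and 18858, within the range of the others (9340 to 20006).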

How the data were processed

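Peaks of 29 mouse ChIP-seq libraries (H3K4me3, H3K27ac and H3K4me1, liver and heart) were used, 1 list per library; other species, factor libraries and inputs were not used here. The submitters' processing notes name MACS2; its settings, the aligner and all versions were not given in the sources used here, and the build is GRCm38 per the file names. The deposited fold is a linear ratio over background, the deposited −log10 p and −log10 q are the caller's (lowest −log10 q 1.30), and the deposited score is 10 times the −log10 q. Overlapping peaks of a library were merged, and bases covered were counted in windows of 80 kb, windows of 2 kb stepped by 1 kb and bins of 1 kb over the 21 chromosomes. Windows empty in all libraries of a mark were left out. Heart and liver were compared by two-sided exact permutation tests over libraries, adjusted by Benjamini-Hochberg over all windows of a mark; genes within a library by an exact sign-flip permutation test. The steps were tested on simulated data. Alternatives were a stricter q, equal peak numbers, other window widths, shares, peak numbers, presence, summits and left-out libraries.

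Python 3.11.15, NumPy 2.4.6, pandas 2.3.3, SciPy 1.17.1 and Matplotlib 3.10.9 were used. Members, positions and lists were chosen with earlier results of these data known. The named genes were the 2 members. Pathway genes, neighbouring genes, genes of similar pattern and cell type markers were not analysed here, since no gene positions of GRCm38 were used, and the tissue labels were therefore not checked against markers; no sequences were used.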

Additional observations from a re-analysis of the deposited data

Results flagged for a closer look

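Libraries that stood far from the rest of their group were sought among 32 groups and values, and 7 values stood out. Chance flags about 1 in 20 groups of continuous values; that rate does not hold for 5 of the 7, where all other libraries were at 0 and any 1 library with a peak stands out by construction. In heart H3K4me3, mouse 33016 had 203 bases upstream of Nppb, 6842 had 497 bases between the gene starts and 6837 had 206 bases after Nppa, each against 0 in the other 5 libraries. In heart H3K27ac, 73317 had 28 bases at the Nppa start against 0 in the others. In heart H3K4me1, 33017 had 290 bases at the Nppb start against 0, and 519 bases between the gene starts against 0 to 28. In the 80 kb after the window, the H3K4me1 list of liver 85924 covered 19065 bases against 5805 to 7218 in the other 3 liver libraries. The 33017 list is the longest H3K4me1 list, and its part in these values was not tested.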

How the results depend on the processing

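Of 211 values recomputed under alternatives, 199 kept their side of the threshold, 5 lost the call, 7 counts of bins moved by more than 1.5 times and 0 reversed. Only the H3K27ac window difference had a call to lose, and the 5 losses were all its own. The other results were not called at the main settings, so the 199 are no measure of stability. Of the 199, 191 kept their direction or stayed at 0 and 8 fell to 0: H3K27ac at the Nppa start (with the stricter q, equal numbers of peaks, 0.5 kb or without 73317), H3K4me1 at the Nppb start (stricter q, equal numbers, or without 33017) and H3K4me1 at the Nppa start (equal numbers). Another 14 of the 199, none of them a call, moved by over 1.5 times without reaching 0. The H3K27ac window difference (4814) ranged from 3977 to 5662 when libraries were left out in turn, and lost its call without any 1 liver library (adjusted p = 0.0531 to 0.0541, exact permutation test); across its alternatives the adjusted p ran from 0.0201 to 0.0561. Without 17_36584 and the pool it was 6734 (adjusted p = 0.0561, exact permutation test), where fewer libraries raise the smallest possible p to 0.0286. The number of H3K27ac bins with all heart libraries above liver (1) was 0 with peaks of a −log10 q of 4 or more, 0 with equal numbers of peaks, 1 to 4 when libraries were left out in turn, and 7 without 17_36584 and the pool. The same number for H3K4me3 (0) was 3 without that pair, and for H3K4me1 (0) it was 0 to 1 when libraries were left out in turn. Leaving out libraries can never lower these numbers, and the pair was chosen after its values were seen. The share of all bins is not given for any of these settings, so the numbers are not read as a result about the cluster. The causes of these changes were not tested beyond the smaller number of libraries. The window difference, with libraries left out in turn, was 982 to 1446 for H3K4me3 and 1715 to 2336 for H3K4me1, and with only libraries whose name begins with do it was 1290 for H3K4me1.

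No paired analysis was possible because heart and liver libraries came from different mice and share no replicate number. Read depth is unknown, so a missing peak means only that none passed the caller's threshold. The exact test cannot go below p = 0.00952 (6 against 4) or 0.0159 (5 against 4), which limits every adjusted p.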
